A study of Mus musculus with 6 samples.

Results

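The genes described here are 9 genes of the actin cytoskeleton and the contractile apparatus in EMT6 cells: Acta2, Tagln, Cnn1, Myl9, Tpm1, Tpm2, Flna, Srf and Dpysl3, out of 53465 genes in the table. They were picked by name, and each name was matched to 1 gene identifier of the table. The choice was made with the differences between the groups known, so their levels and fold changes are given as a description. The fit over all genes is used only to say which of them passed its threshold, and that is not independent evidence. EMT6 is a mouse mammary carcinoma line. It was kept in culture for more than 4 weeks with 0.5 μg/ml of either an isotype control antibody (PVITRO, labelled parental, 3 libraries) or an antibody against PD-L1, the ligand through which tumor cells hold T cells in check (PTRVITRO, labelled resistant, 3 libraries). Both groups grew in the same medium without immune cells. The labels do not say whether libraries of a group came from separate cultures, and the study counts replicates as technical ones by default, with no other kind given for these libraries. The SDs and p-values below therefore measure only the spread between these libraries, which may be technical alone.

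Actin filaments and non-muscle myosin form the stress fibres with which a cell pulls on its surroundings. Tropomyosins coat the filaments, filamins cross-link them, and transgelin and calponins bind along them. Serum response factor, encoded by Srf, is the transcription factor that binds CArG boxes in the promoters of many of these genes. Its co-activators of the MRTF family are held in the cytoplasm by free actin monomers, so that transcription of cytoskeletal genes follows the state of the actin cytoskeleton. Acta2, Tagln, Cnn1 and Myl9 are known as markers of smooth muscle cells and of contractile fibroblasts.

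The CArG box is shown first because it is the sequence that the product of Srf binds. It was searched as CC, 6 inner bases that are each A or T, and GG, a pattern that reads the same on both strands, in the 250 bases before the start site in the RefSeq promoter table (GRCm38.p6). Of the 9 genes, 7 had an entry there, and Tagln and Dpysl3 had none. Srf and Myl9 held a box with all 6 inner bases A or T, as did 1.62% of 27025 genes with an entry. Srf held 2 such boxes, which was the case for 5 genes or 0.0185%. With 1 inner base allowed to be another letter, Acta2 joined them, and 3 of the 7 genes matched against 9.78% of all genes. Cnn1, Tpm1, Tpm2 and Flna had no match in this window. In the sequences below, the boxes are in capitals. The first sequence lies at chr17:46556191-46556274 on the minus strand and the second at chr2:156775273-156775398 on the plus strand. The sites of Acta2 lie at chr19:34255438-34255467 and chr19:34255388-34255417, on the minus strand, both within an exon of a longer Acta2 transcript in GENCODE M21.
Srf: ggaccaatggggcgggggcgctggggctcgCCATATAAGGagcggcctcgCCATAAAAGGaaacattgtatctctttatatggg
Myl9: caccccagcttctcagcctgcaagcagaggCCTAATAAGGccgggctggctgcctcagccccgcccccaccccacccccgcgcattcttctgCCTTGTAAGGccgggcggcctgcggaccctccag
Acta2, distal site: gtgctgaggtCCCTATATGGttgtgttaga
Acta2, proximal site: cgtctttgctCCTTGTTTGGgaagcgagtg

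The boxes of Srf began 82 and 62 bases before the start site, those of Myl9 at 161 and 99 bases and those of Acta2 at 84 and 34 bases. A match describes the sequence and does not show that the factor binds there. The genes with 2 matches differed widely in level, with 24.65 CPM per kilobase of exon for Srf, 14.3 for Acta2 and 0.495 for Myl9 over all libraries.

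**Figure D1:**
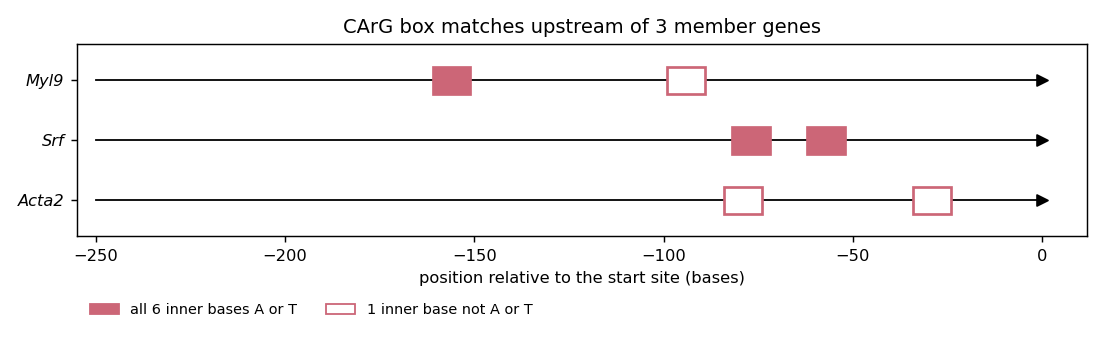
Position of CArG box matches relative to the start site, in bases, for Acta2, Srf and Myl9. Filled boxes have A or T at all 6 inner bases and open boxes have 1 other letter. Each gene holds 2 matches, and the filled pair belongs to Srf at 82 and 62 bases.

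The 6 libraries held from 17757341 to 32426739 counts. Levels are given as CPM, counts relative to the library total after scaling by the upper quartile, with the SD over 3 libraries. A floor of 3 counts per library corresponds to between 0.0925 and 0.168 CPM, and floors cover counting error only. Markers of the line were checked. Krt8 and Krt18, keratins of simple epithelia, were at 1081 and 519 CPM and vimentin (Vim) at 1890 CPM on average, while Cdh1, the epithelial cadherin, was at or under 1 count in every library. None of 6 leukocyte and 4 endothelial markers reached 1 CPM. Of 8 markers of differentiated smooth muscle, 7 had a mean under 1 CPM, among them Myh11, Lmod1 and Myocd, and only the broadly expressed Smtn was high (157.5 CPM). Together the 9 genes took from 0.264% to 0.284% of the counts of a library.

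Across the 9 genes, the data show an abundant non-muscle actin system and little RNA of most of the smooth muscle genes, with few differences between the groups. Flna and Tpm1 were the most abundant, Acta2, Tpm2 and Srf were intermediate, Tagln and Myl9 had from 9 to 47.49 counts in a library, and Cnn1 lay at or under the floor. Per kilobase of exon sequence, the mean level was 175.2 CPM for Flna, 138.0 for Tpm1, 30.3 for Tpm2, 24.65 for Srf, 14.3 for Acta2, 1.91 for Dpysl3, 0.624 for Tagln, 0.495 for Myl9 and 0.0232 for Cnn1. Of the 9, 8 had enough counts to be tested with the other genes, and Cnn1 did not. Dpysl3 was the only one with an adjusted p below 0.05 in the edgeR quasi-likelihood test with Benjamini-Hochberg adjustment over all 14217 tested genes, of which 0.246% were called in either direction and 0.148% as lower. The groups did not overlap in 3 of the 8, Dpysl3 and Srf with PTRVITRO below and Tpm2 with PTRVITRO above, and in 17.6% of all tested genes (9.33% below and 8.3% above). Nothing is read from these counts, since the genes were chosen with this comparison known. The median log2 fold change of the 8 genes was -0.04 (4 above and 4 below 0), beside a median of -0.004 for all tested genes.

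**Figure D2:**
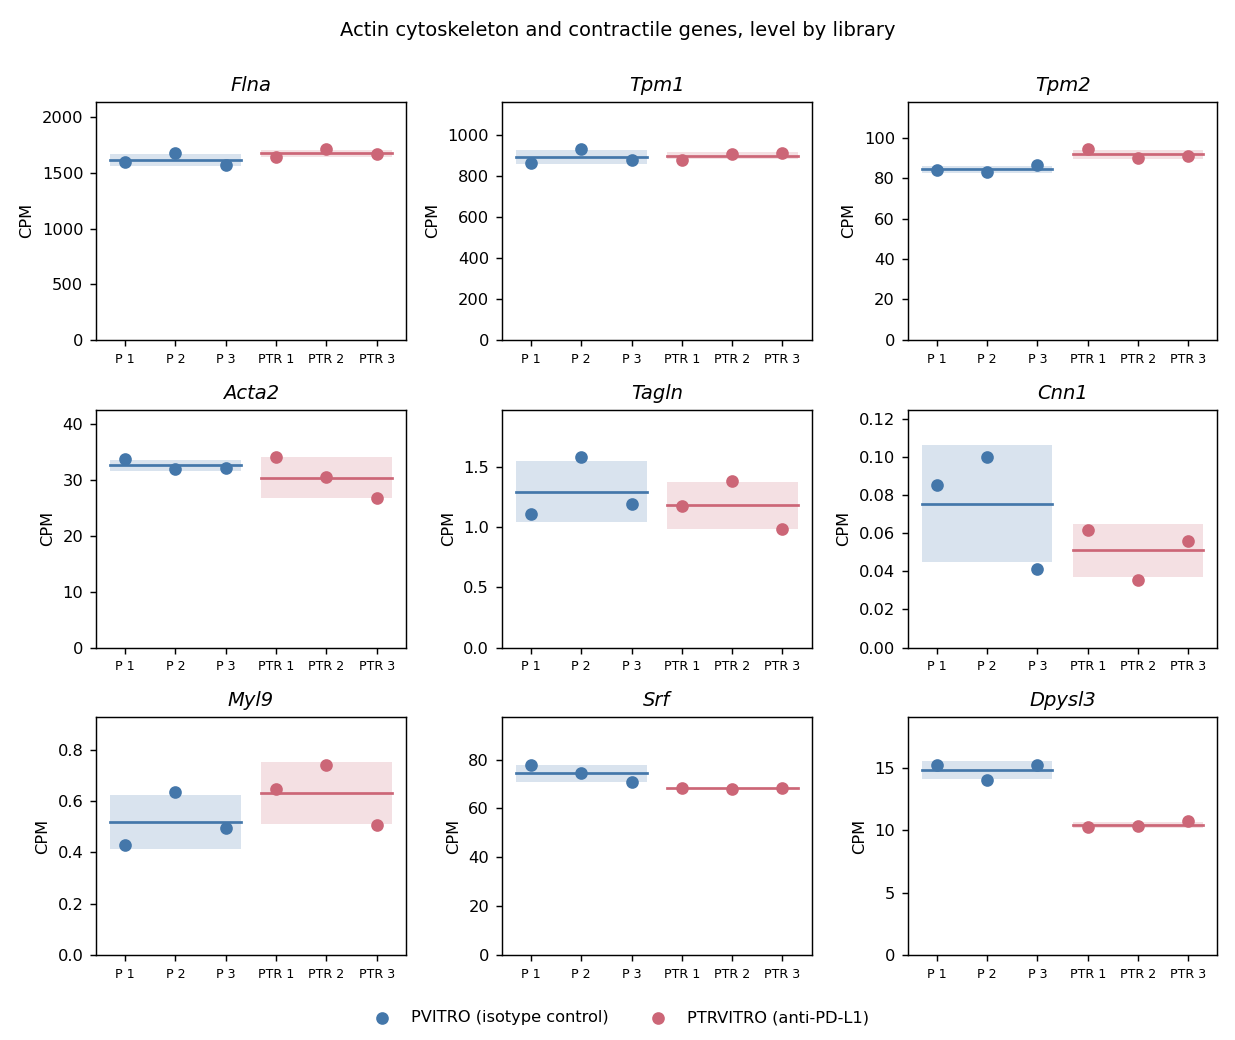
Level of each of the 9 genes in CPM (linear axis from 0) in each library, PVITRO in blue and PTRVITRO in red. Lines give the group mean and shaded bands the SD (n = 3). Dpysl3 sits between 13.99 and 15.2 CPM in PVITRO and between 10.2 and 10.7 CPM in PTRVITRO, and in the other panels the groups overlap or, for Srf and Tpm2, differ by less relative to their level (log2 fold changes of -0.12 and 0.12). Cnn1 lies at or under the floor of 3 counts.

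Dpysl3 (ENSMUSG00000024501.19, GRCm38, chromosome 18, 43320984 to 43438286, minus strand) encodes a protein of the collapsin response mediator family that binds actin filaments and is best known from growing neurites. It had 15.2, 13.99 and 15.2 CPM in PVITRO replicates 1 to 3 and 10.2, 10.3 and 10.7 CPM in PTRVITRO replicates 1 to 3. Every PTRVITRO library lay below every PVITRO library, and the spread within each group was small. The mean fell from 14.8 ± 0.705 CPM to 10.4 ± 0.260 CPM (SD, n = 3), to 70.4% of the control level, with a log2 fold change of -0.51 (SE 0.0734). The counts behind it were 355, 419 and 368 in PVITRO and 332, 292 and 191 in PTRVITRO. Among 10842 tested genes with a mean count of at least 100, its fall was number 23 in size. With 1 library left out, the log2 fold change stayed between -0.55 and -0.48, but the call was lost without PVITRO replicate 1 (-0.48), PVITRO replicate 3 (-0.48), PTRVITRO replicate 2 (-0.50) or PTRVITRO replicate 3 (-0.52).

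The rest of its family gave a way to express this difference without scaling by depth. Dpysl2, the other member of the family with more than a few counts, had 56.9, 53.9 and 59.7 CPM in PVITRO and 62.0, 55.2 and 60.6 CPM in PTRVITRO (log2 fold change 0.06, SE 0.0557, edgeR adjusted p 0.722), with groups that overlapped. Crmp1 and Dpysl4 had a count of 0 in every library. Dpysl5 had a mean count of 0.50. Per length of exon sequence, Dpysl3 made up 15.5%, 15.1% and 14.8% of the family in the PVITRO libraries and 10.2%, 11.3% and 10.8% in the PTRVITRO libraries. Taking the median length of coding transcripts in place of all exons raised the share to 35.8% ± 0.553 and 27.4% ± 1.21. Each length is the same in every library, and nearly all other counts of the family are from Dpysl2. The choice of length therefore could not bring the groups together, and the share restates the counts of Dpysl3 beside those of Dpysl2.

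Levels of markers outside the cytoskeleton are given beside this difference. The summed level of 6 fibroblast and pericyte markers, of which Lum was at 0, ran from 138.8 to 147.2 CPM in PVITRO and from 121.1 to 128.5 CPM in PTRVITRO, and most of that gap lay in Dcn, which encodes the matrix protein decorin (42.2 ± 5.78 and 28.2 ± 4.72 CPM). The summed level of 6 mesenchymal markers, most of it Fn1, ran from 8601 to 9450 CPM and from 7927 to 8377 CPM, and Cdh2 was at 0 in 5 of the 6 libraries. The summed level of 8 mammary epithelial markers ran from 1541 to 1665 CPM and from 1627 to 1707 CPM. Within that list, Krt18 (489 ± 14.6 and 549 ± 23.1 CPM) and Epcam (1.59 ± 0.306 and 2.24 ± 0.149 CPM) lay above in every PTRVITRO library and Krt14 (8.77 ± 0.414 and 7.33 ± 0.572 CPM) below. In the fibroblast and mesenchymal lists, the genes whose groups did not overlap were Dcn, Pdgfrb (81.1 ± 2.49 and 75.8 ± 1.34 CPM), Fn1 (6645 ± 471.1 and 5866 ± 314.6 CPM) and Zeb1 (15.1 ± 1.08 and 12.8 ± 0.891 CPM), all with PTRVITRO below, as for Dpysl3. No gene of these 3 lists was called with edgeR. Their part in the lower Dpysl3 level was not tested. In bulk RNA, fewer cells with a transcript and less of it per cell cannot be told apart.

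Srf (ENSMUSG00000015605.5, chromosome 17, 46548329 to 46556175) had 77.9, 74.3 and 70.8 CPM in PVITRO and 68.4, 68.0 and 68.4 CPM in PTRVITRO. The PTRVITRO libraries were close to each other and lay below the control libraries, of which replicate 3 was the nearest. The means were 74.4 ± 3.52 CPM and 68.3 ± 0.253 CPM (log2 fold change -0.12, SE 0.0438), and the gene was not called. It remained below 0 in every fit that left out 1 library, between -0.15 and -0.08.

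Regulators of the same pathway were taken from a list of 18 genes from RhoA to the MRTF co-activators, of which 16 were tested. With edgeR, 0 were called. An unadjusted p below 0.05 was found for Limk2, a kinase that inactivates cofilin (log2 fold change 0.11, SE 0.0410, edgeR adjusted p 0.310), and Arhgef2, an activator of RhoA (-0.09, SE 0.0321, edgeR adjusted p 0.320). The co-activator Mrtfa had 74.4 ± 1.97 CPM in PVITRO and 70.8 ± 3.18 CPM in PTRVITRO, a log2 difference of -0.07 (edgeR adjusted p 0.575). Mrtfb was at 44.2 ± 0.159 CPM and 44.5 ± 1.49 CPM (edgeR adjusted p 0.972). Rhoa, the GTPase that drives stress fibre assembly, was at 434.6 ± 8.44 CPM and 439.5 ± 5.93 CPM (edgeR adjusted p 0.890), and Rhoc at 671.2 ± 3.23 CPM and 675.9 ± 17.2 CPM (edgeR adjusted p 0.939). Myocd, the co-activator of Srf in smooth muscle, had a mean count of 0.50, and Abra of 0.333. RNA of both MRTF co-activators was thus present, and that of Myocd lay under the floor in each library.

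Acta2 (ENSMUSG00000035783.8, chromosome 19, 34241090 to 34255590) encodes the actin of vascular smooth muscle and of myofibroblasts. It had 33.7, 32.0 and 32.0 CPM in PVITRO and 34.0, 30.4 and 26.7 CPM in PTRVITRO. Both the highest and the lowest library were in PTRVITRO, replicates 1 and 3, and the groups overlapped. The means were 32.6 ± 0.983 CPM and 30.4 ± 3.68 CPM (log2 fold change -0.09, SE 0.0770). The log2 fold change was -0.01 without PTRVITRO replicate 3 and -0.18 without PTRVITRO replicate 1.

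Among the actins, Acta2 was a minor species. Actb and Actg1, the cytoplasmic actins, held 53.2% and 46.2% of the family per exon length on average, and Acta2 held 0.616% (0.344% with the median length of coding transcripts). Acta1, Actc1 and Actg2, the other muscle actins, had mean counts of 1.85, 0.167 and 5.67 and were not tested. Actb was at 3328 ± 35.1 CPM in PVITRO and 3296 ± 40.8 CPM in PTRVITRO (log2 fold change -0.01, SE 0.0265, edgeR adjusted p 0.889). Actg1 had 3079, 2924 and 2944 CPM in PVITRO and 2838, 2702 and 2649 CPM in PTRVITRO. All its PTRVITRO libraries lay below the control libraries, by -0.13 on the log2 scale (SE 0.0343), which did not pass the threshold (edgeR adjusted p 0.184). Without the filter on low counts it did (edgeR adjusted p 0.00837), and it was the only gene of the 7 other lists called under any alternative.

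Tropomyosins wind along the filament and set which myosins and severing proteins reach it. Tpm2 (ENSMUSG00000028464.16, chromosome 4, 43514711 to 43523765) had 83.9, 83.0 and 86.5 CPM in PVITRO and 94.2, 90.2 and 91.0 CPM in PTRVITRO. Each PTRVITRO library was above each control library. The group means were 84.5 ± 1.79 CPM and 91.8 ± 2.14 CPM (log2 fold change 0.12, SE 0.0391). The gene was not called, and its log2 fold change ran from 0.10 to 0.14 with 1 library left out.

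Tpm1 (ENSMUSG00000032366.15, chromosome 9, 67022590 to 67049406) was at 864.9, 929.1 and 878.6 CPM in PVITRO and at 879.9, 904.7 and 911.7 CPM in PTRVITRO. PVITRO replicate 2 was the highest and the groups overlapped (log2 fold change 0.01, SE 0.0348). The sign turned without PVITRO replicate 1 (-0.0033). Tpm3 and Tpm4 gave 259.1 ± 0.141 CPM and 684.9 ± 26.2 CPM in PVITRO and 253.1 ± 9.85 CPM and 701.7 ± 12.9 CPM in PTRVITRO, and neither was called (edgeR adjusted p 0.764 and 0.760). The share of Tpm2 among the 4 tropomyosins was 5.59% ± 0.225 in PVITRO and 5.95% ± 0.208 in PTRVITRO per exon length. The order of Tpm1 and Tpm4 depended on the length used, and Tpm1 has 21 annotated transcripts. Tpm1 held 26.3% of the family with all exons and 47.4% with the median coding transcript, against 59.9% and 28.3% for Tpm4.

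**Figure D3:**
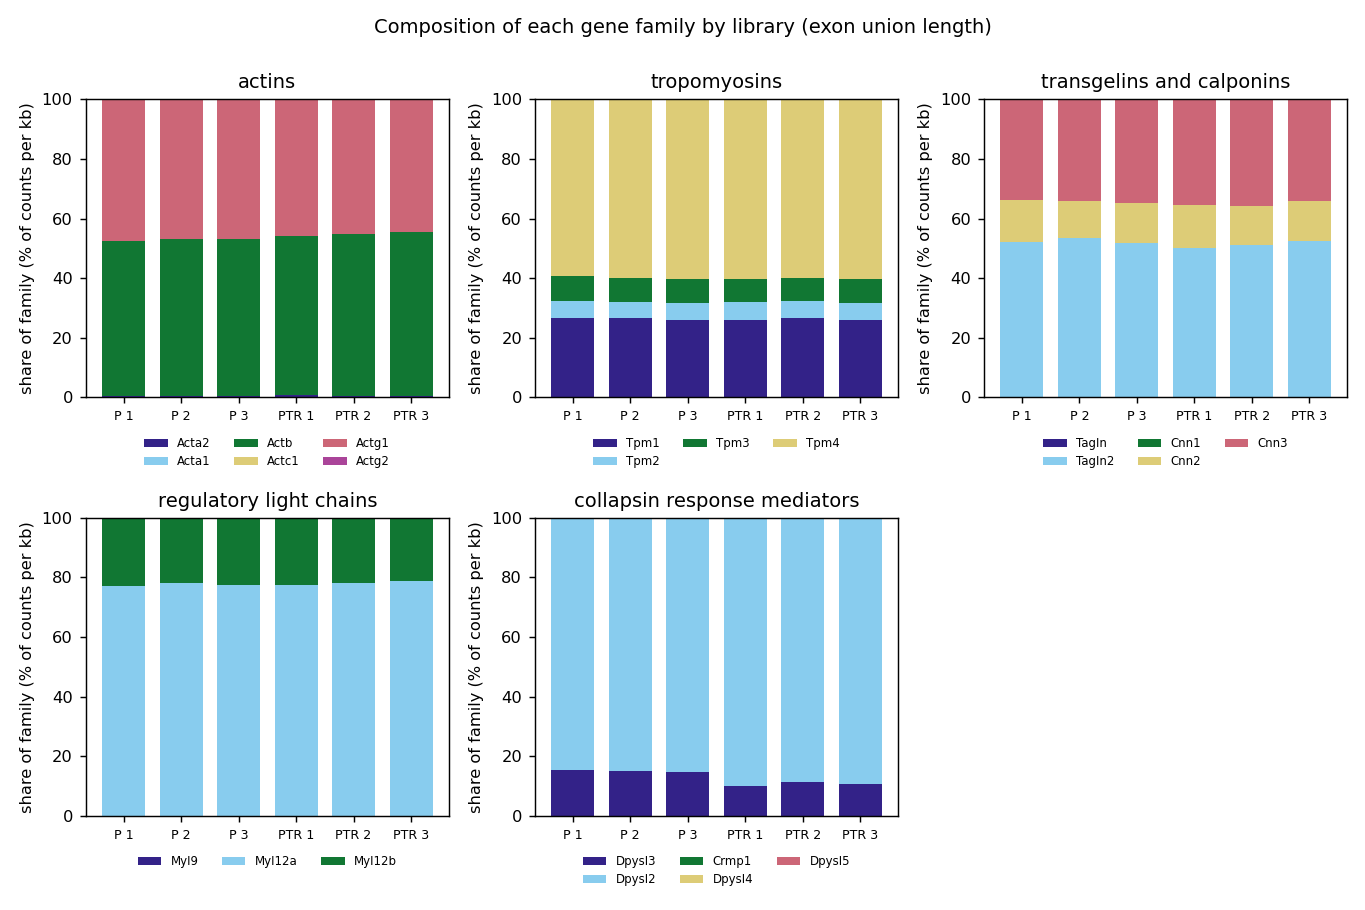
Share of each gene in its family by library, in percent of counts per kilobase of exon (stacked to 100%), for actins, tropomyosins, transgelins and calponins, myosin regulatory light chains and collapsin response mediators. Tagln, Cnn1 and Myl9 are too small to be seen at this scale and Acta2 is a thin line at the bottom. The share of Dpysl3 is between 14.8% and 15.5% in PVITRO and between 10.2% and 11.3% in PTRVITRO.

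Flna (ENSMUSG00000031328.15, chromosome X, 74223461 to 74249820), which cross-links filaments into networks and ties them to integrins, was the most abundant of the 9 genes. It had 1598, 1680 and 1573 CPM in PVITRO and 1643, 1712 and 1675 CPM in PTRVITRO. The groups overlapped, with PVITRO replicate 2 above 2 of the 3 PTRVITRO libraries. The means were 1617 ± 56.4 CPM and 1677 ± 34.3 CPM (log2 fold change 0.05, SE 0.0334). For Flna as for Tpm1, PVITRO replicate 2 and PTRVITRO replicates 2 and 3 were the 3 highest libraries.

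Flnc, the filamin best known from muscle, had 348.8 ± 23.4 CPM in PVITRO and 328.2 ± 8.06 CPM in PTRVITRO, a log2 difference of -0.09 (edgeR adjusted p 0.518). It did not pass the threshold.

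The remaining smooth muscle genes, Tagln, Cnn1 and Myl9, had few counts. Tagln (ENSMUSG00000032085.5, chromosome 9, 45929619 to 45936058), which encodes the actin-binding protein transgelin, had 1.11, 1.585 and 1.19 CPM in PVITRO and 1.18, 1.38 and 0.989 CPM in PTRVITRO. The groups overlapped, and the log2 fold change of -0.12 (SE 0.234) turned to 0.05 without PVITRO replicate 2 and was -0.24 without PTRVITRO replicate 2. Its counts are uncertain. Gm48529, on the opposite strand, shares 647 bases with Tagln at 100% identity and had more counts than Tagln in each library, and whether reads were assigned by strand is not given in the sources used here. The sum of both was 3.04 ± 0.324 CPM in PVITRO and 2.96 ± 0.583 CPM in PTRVITRO. Pcsk7 also overlaps Tagln on the opposite strand, by 108 bases.

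Cnn1 (ENSMUSG00000001349.5, chromosome 9, 22099216 to 22109630), the calponin of smooth muscle, had 2, 3 and 1 counts in PVITRO and 2, 1 and 1 counts in PTRVITRO. Every library was at or under the floor, so no fold is given and a difference was not detectable at this depth. RNA of its broadly expressed relatives was abundant. Tagln2 held 51.7%, Cnn3 34.7% and Cnn2 13.5% of the transgelin and calponin RNA per exon length, and Tagln held 0.141%. Cnn3 was at 457.6 ± 3.21 CPM in PVITRO and 477.5 ± 9.45 CPM in PTRVITRO (log2 fold change 0.06, SE 0.0308, edgeR adjusted p 0.492), with groups that did not overlap.

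Myl9 (ENSMUSG00000067818.6, chromosome 2, 156775420 to 156781658) encodes a regulatory light chain, the subunit whose phosphorylation switches on myosin II. It had 10, 19 and 12 counts in PVITRO and 21, 21 and 9 counts in PTRVITRO, or 0.428, 0.634 and 0.496 CPM and 0.648, 0.741 and 0.505 CPM. The groups overlapped, and the log2 fold change of 0.29 had an SE of 0.302. It was 0.17 without PTRVITRO replicate 2, 0.18 without PVITRO replicate 1 and 0.47 without PVITRO replicate 2. Myl12a and Myl12b, its non-muscle relatives, held 77.8% and 22.1% of the RNA of the 3 light chains per exon length, and Myl9 held 0.139%.

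**Figure D4:**
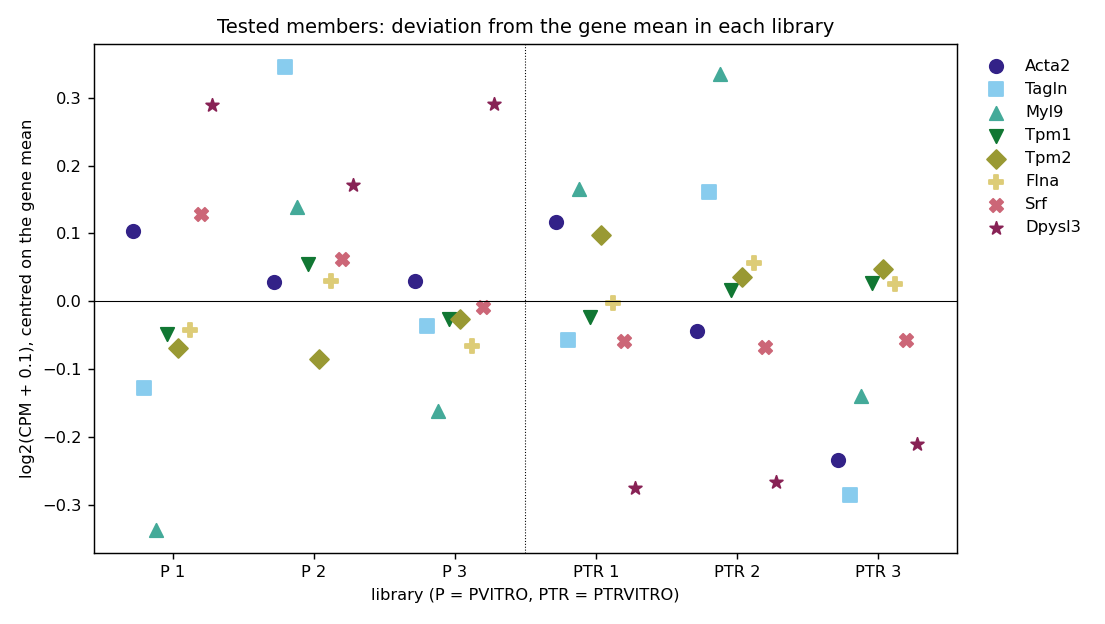
Deviation of each of the 8 tested genes from its own mean in each library, as log2 of CPM plus 0.1. PVITRO libraries are left of the dotted line. Dpysl3 lies above 0 in all PVITRO and below 0 in all PTRVITRO libraries, while Tagln and Myl9, with few counts, spread most within groups and Acta2 is lowest in PTRVITRO replicate 3.

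The tested genes did not all follow the same profile over the libraries. Among the PVITRO libraries, Tagln, Myl9, Tpm1 and Flna were highest in replicate 2. Acta2 and Srf were highest in replicate 1, and Tpm2 and Dpysl3 in replicate 3. The mean of their centred log2 levels differed by -0.05 between the groups, with an SD of 0.0635 within groups. Dpysl3 differed by -0.50 (SD within groups 0.0550) and Tpm2 by 0.12 (0.0319), whereas Tagln and Myl9 had an SD within groups of 0.237 and 0.241. Among the genes outside the set with the most similar profile to the mean, by the root-mean-square difference over 6 libraries, were Mdp1 (0.0148), Rbsn (0.0156), Pla2r1 (0.0188) and Champ1 (0.0224). None of these 4 was called, and their log2 fold changes were between -0.08 and -0.04.

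The wider cytoskeleton was described with 7 other lists of 105 genes, of which 94 were tested. With edgeR, 0 of them were called, with 5 at an unadjusted p below 0.05 (1620 of the 14217 tested genes were), and DESeq2 and limma-voom also called 0. The background share called was 0.246%. In these lists 45 genes had a log2 fold change above 0 and 49 below, with a median of -0.007 beside -0.004 for all tested genes. All 94 lay within 0.2 of 0 on the log2 scale, between -0.18 and 0.12, which was the case for 11864 of the 14217 tested genes.

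Of 15 tested partners of the thin filament and myosins, 7 had a log2 fold change above 0 and 8 below. Cald1, which encodes caldesmon, and Myh9, which encodes the heavy chain of non-muscle myosin IIA, were the most abundant, at 1715 ± 68.3 CPM and 1189 ± 86.8 CPM in PVITRO and 1685 ± 76.6 CPM and 1133 ± 47.9 CPM in PTRVITRO (edgeR adjusted p 0.861 and 0.641). Of 12 cross-linkers and bundlers, 6 were above and 6 below 0. The smallest unadjusted p there belonged to Fscn1, the bundling protein of filopodia (log2 fold change -0.07, SE 0.0324, edgeR adjusted p 0.443). Plec, a large linker of filaments, was at 501.0 ± 48.6 CPM and 501.8 ± 11.4 CPM (edgeR adjusted p 0.996).

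Among 29 genes of actin assembly and turnover, 15 were above and 14 below 0. Cfl1, a severing protein, was at 802.2 ± 35.0 CPM in PVITRO and 793.9 ± 31.7 CPM in PTRVITRO, and Actr3, a subunit of the Arp2/3 complex, at 666.3 ± 18.3 CPM and 669.3 ± 39.6 CPM (edgeR adjusted p 0.929 and 0.973). Arpc3, another subunit of that complex, had the smallest unadjusted p (log2 fold change 0.12, SE 0.0518, edgeR adjusted p 0.421). Of 19 tested genes of focal adhesions, 8 were above and 11 below 0. Bcar1, a scaffold of integrin signalling, was at 113.9 ± 8.99 CPM and 102.1 ± 2.801 CPM (log2 difference -0.16, SE 0.0551, edgeR adjusted p 0.292). Pdlim5 differed by -0.08 on the log2 scale and Tln1, which encodes talin, by -0.06 (edgeR adjusted p 0.481 and 0.588).

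**Figure D5:**
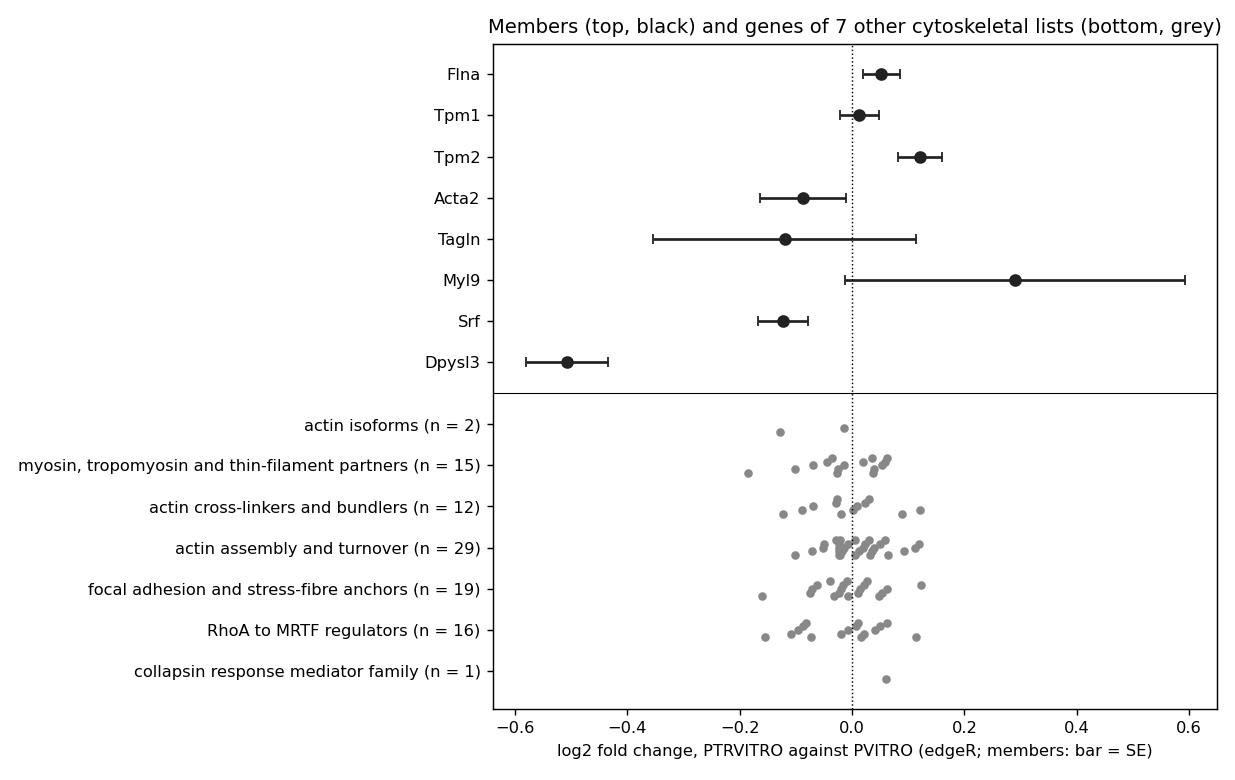
Log2 fold change of PTRVITRO against PVITRO from edgeR, for the 8 tested genes (black, bars give the SE) and for 94 genes of 7 other cytoskeletal lists (grey, 1 point per gene, spread vertically for display). Dpysl3 at -0.51 lies outside the range of the grey points, which is -0.18 to 0.12, as does the point of Myl9 at 0.29, which has a wide SE.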

How the data were processed

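Libraries of polyadenylated RNA were prepared with a stranded kit. The authors aligned reads to GRCm38 (GENCODE M16) with STAR 2.6.0a and deposited gene-level estimated counts from RSEM 1.3.1, which are not scaled between samples. Between 12.5% and 13.8% of the values of a library were not whole, and counts were rounded for the tests. Symbols, positions and exon lengths were taken from GENCODE M21, of the same build, which placed 53360 of 53465 identifiers. Mkl1 and Mkl2 are named Mrtfa and Mrtfb there.

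Genes were filtered with filterByExpr (minimum count 10, minimum total 15), scaled by the upper quartile and fitted with edgeR 4.0.16 (R 4.3.3) on group alone, using its quasi-likelihood test. Genes with a Benjamini-Hochberg adjusted p below 0.05, taken over every gene tested, are called. The SE was derived from the F statistic. Copies of the 9 genes were searched with BLAST+ 2.17.0 (at least 95% identity over 200 bases). The fit was also tested on simulated data with known changes.

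The 9 genes and the 7 other lists were chosen with earlier results of these data known. Other genes were named by rule: those called, the 2 most abundant and the one with the smallest p of each list, all tested family members, Mrtfa and Mrtfb, and the 5 genes with the nearest profile (mean count 100 or more, pseudocount 0.1 CPM). Some results under this rule are not reported here. Arhgef2, named beyond the rule, the relatives used for family shares and the median coding transcript length were chosen after their values were seen. The alternatives were TMM, no scaling factor, DESeq2 1.42.0, limma-voom (limma 3.58.1), 2 other filters, a replicate block and leaving out each library.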

Additional observations from a re-analysis of the deposited data

How the results depend on the processing

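Dpysl3 was lower in PTRVITRO and called in each of 7 fits with another scaling, test, filter or term, with a log2 fold change from -0.51 to -0.49. The number of the 9 genes called ran from 0 to 1 with 1 library left out. Their median log2 fold change then ran from -0.0467 to 0.0496, the highest without PVITRO replicate 2. It was -0.0875 without a filter, where Cnn1 entered the fit, and -0.0922 with at least 10 counts in every sample, where Myl9 dropped out. Both medians are the values of Acta2, which was at -0.0874 with the filter used above. Over all genes, the 35 calls (14 higher, 21 lower) became 111 with DESeq2 (43 higher, 68 lower), 400 without a filter on low counts (163 and 237), 54 with at least 10 counts in every sample (35 lower) and 68 in the fit with a replicate block (25 higher, 43 lower). With 1 library left out they ran from 8 to 64 (0 to 19 higher, 6 to 45 lower). The replicate numbers did not pair the samples, with same-number correlations of 0.116, 0.0936 and -0.0531. The other lists had 1 call, lower, without the filter. The median of all genes was 0.0084 without a scaling factor. Plec turned to -0.0041 with at least 10 counts in every sample. With 1 library left out, log2 fold changes lay between the following bounds: -0.0277 to 0.0531 for Actr3, -0.0522 to 0.0128 for Cald1, -0.0470 to 0.0196 for Cfl1, -0.0075 to 0.0350 for Mrtfb, -0.0418 to 0.0855 for Plec and -0.0070 to 0.0236 for Rhoc. The causes were not tested, except that fewer libraries entered the leave-one-out fits and that the other filters changed which of the 9 genes were fitted. Myl9 gave no value with at least 10 counts in every sample. Depth limits Cnn1, Myl9 and Tagln.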
